A study of Homo sapiens with 3 samples.

Results

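The cells described here were the G1 cells of spheroids in which ribociclib-sensitive and ribociclib-resistant CAMA-1 cells had grown together. They were chosen from the deposited annotation of the coculture library by the phase label G1 and divided by the lineage label, which rests on the fluorescent transgene each cell carried. This gave 3125 resistant and 1138 sensitive cells, together 4263 of the 8351 annotated cells of the coculture and of the 19237 annotated cells of the series. Both lineages went through the same dissociation, droplets, library and sequencing, so the comparison had no library difference, but free RNA of either lineage could reach the droplets of the other.

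CAMA-1 is an established estrogen receptor-positive, luminal breast cancer cell line. The sensitive lineage carried mVenus, and the resistant lineage, selected for growth under ribociclib over months, carried mCherry. The coculture was plated with 50% sensitive cells and was sampled after 11 days in 1 µM ribociclib, with the treatment label also naming the solvent DMSO. The study's general spheroid method plated 2000 cells. Its methods do not give the number of spheroids in the library. A sensitive and a resistant monoculture under the same treatment gave 2963 and 3781 G1 cells for reference. Each condition was 1 library and each lineage was 1 cell population, so no difference below has a replicate check, no p-value is given, and intervals cover counting error only.

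Ribociclib inhibits CDK4 and CDK6, the cyclin D-dependent kinases that phosphorylate RB1 and so release the E2F transcription factors that drive entry into S phase. Sensitive luminal cells therefore tend to stop in G1 under the drug, whereas resistant cells continue to divide. Here 89.0% of sensitive cells were labelled G1 in monoculture but 55.3% in coculture. The G1 label does not show which cells of either lineage were arrested. G1 is the phase that holds both arrested cells and cells between divisions, and a comparison within it limits the difference that cycling itself makes to RNA.

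The 2 populations were of like phase and similar depth. G1 cells made up 49.7% of resistant cells (95% exact binomial interval 48.4 to 50.9) and 55.3% of sensitive cells (53.1 to 57.4) in the coculture. Resistant G1 cells had a median of 28687 unique molecular identifiers (UMIs) and 4508 genes per cell, and sensitive G1 cells 31964 UMIs and 4800 genes. The summed counts were 92919329 and 36867890 UMIs. Mitochondrial transcripts took a median of 16.2% of UMIs in resistant and 19.2% in sensitive cells, a difference whose part in the results below was not tested apart from a comparison of cells under 15%. The genes of a standard S-phase list summed to 574 CPM (counts per 1000000 UMIs) in resistant and 571 CPM in sensitive G1 cells, and the G2M genes to 1753 and 1738 CPM. In cells labelled S or G2M the same sums were 1875 and 1940 CPM and 5118 and 5348 CPM. Phase labels rest on scores of such genes, so their closeness is a property of the rule.

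The lineage labels held for the transgenes by construction. No mVenus UMI was counted in the 3125 resistant cells, against 2392 in the sensitive cells (64.9 CPM), and no mCherry UMI in the 1138 sensitive cells, against 7389 in the resistant cells (79.5 CPM). Of the resistant cells 1825 had 2 or more mCherry UMIs, and of the sensitive cells 591 had 2 or more mVenus UMIs, so the rest were labelled by a single UMI. In the coculture 614 barcodes held both transgenes, and none of these is in the annotation. The annotation of the monocultures also kept cells with no transgene UMI. Of their G1 cells 67.2% of the sensitive held an mVenus UMI and 67.7% of the resistant an mCherry UMI. Cells of the monocultures and the coculture were thus not selected alike, and the part of this in their comparison was not tested. Annotated barcodes shared between any 2 libraries numbered 7 to 17, at most 0.24% of a library.

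The cells were luminal in both lineages. The 8 luminal epithelial markers summed to 8784 CPM in resistant and 9722 CPM in sensitive cells and none differed by more than 1.5-fold. Immune markers summed to 2.61 and 2.77 CPM. Basal epithelial markers summed to 4.43 and 17.9 CPM, mostly through MYLK, a myosin kinase of contractile cells (2.31 and 14.8 CPM), and stromal markers to 6.11 and 24.0 CPM, with COL3A1, a fibrillar collagen, at 2.45 CPM in resistant cells, 12.3% of its level in sensitive cells, and COL1A1 at 3.42 and 3.82 CPM. KRT14, the defining basal keratin, was at 0.85 and 0.90 CPM.

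Most genes had near-equal levels in the 2 lineages, and the larger differences ran towards lower levels in resistant cells. A gene was examined when it had at least 50 UMIs over both populations, which 12101 genes did. Values compared were CPM of the summed counts, and a ratio is given as the log2 of resistant over sensitive CPM, each plus 1 CPM, which understates the change of low genes. The median log2 ratio was −0.0014 and the quartiles −0.17 and 0.15. By more than 1.5-fold, 302 genes were higher in resistant cells, 2.5% of those examined, and 565 were lower, 4.67%, together 7.16%. Intervals were those of the ratio without the added 1 CPM. For 220 of the higher and 465 of the lower genes the whole 95% exact interval lay beyond 1.5-fold.

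Among the 4525 genes that averaged 20 CPM or more, 78 were higher (1.72%) and 115 lower (2.54%). In genes below 5 CPM these shares were 3.51% and 7.70%. The root mean square log2 ratio over the 4525 genes was 0.31. It was 0.29 between the lineages in S and G2M cells of the same coculture and 0.50 between G1 cells of the 2 monocultures.

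**Figure D1:**
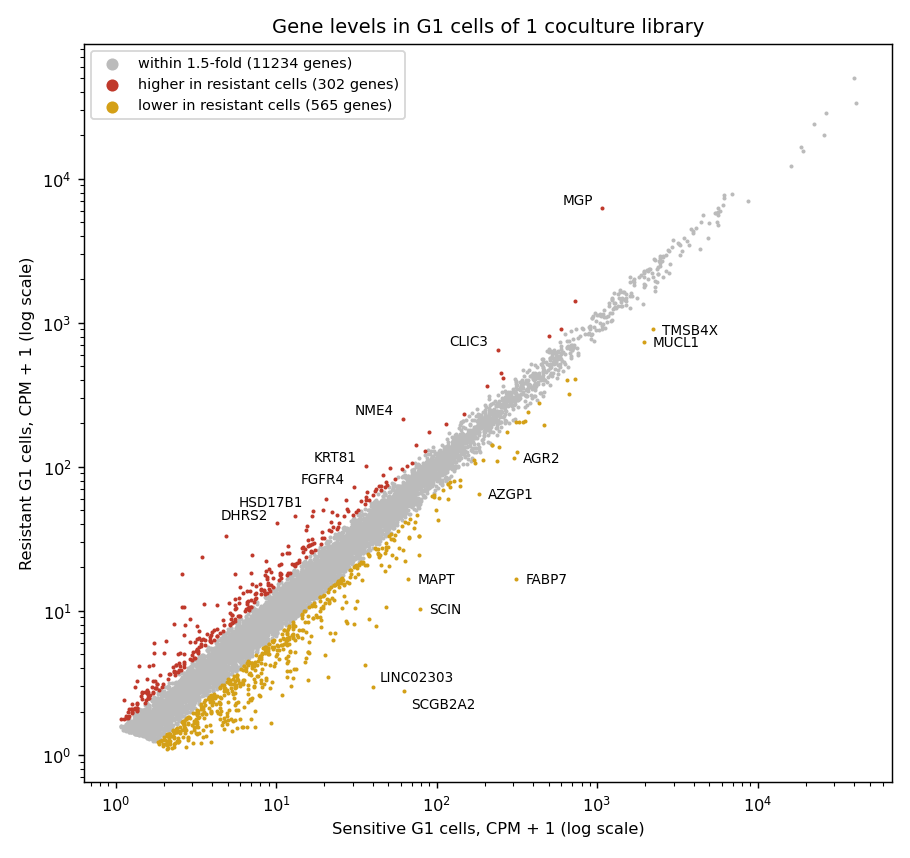
Each point is 1 of 12101 genes, with its level in sensitive G1 cells on the horizontal and in resistant G1 cells on the vertical axis (CPM + 1, both log scales), and genes beyond 1.5-fold are colored. MGP stands highest above the diagonal among abundant genes at 6221 against 1070 CPM, and FABP7 far below it at 15.7 against 313 CPM.

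MGP, matrix Gla protein, a secreted inhibitor of calcification, was the most abundant of the genes higher in resistant cells and had the largest ratio among genes of at least 20 CPM. The gene lies on chromosome 12 at 15033798 to 15038791 (GRCh37). Its level was 6221 CPM in resistant and 1070 CPM in sensitive G1 cells, a 5.82-fold difference (95% interval 5.76 to 5.88). On the log2 scale this was 2.54. It was 4.23 after an estimated share of the other lineage's RNA was removed, but the 11.1% removed from sensitive cells rests on 1 gene, BRINP3, and counts all of its transcripts there as foreign, which was not tested. After each cell was thinned to 10000 UMIs, which left out 2 resistant cells and no sensitive cell, the median cell held 48 MGP UMIs in the resistant and 4 in the sensitive lineage. A resistant cell had more MGP than a sensitive cell in 85.9% of all pairs, with ties shared evenly. The distributions overlapped: 72.0% of resistant cells (70.4 to 73.6) and 12.7% of sensitive cells (10.9 to 14.8) held 20 or more MGP UMIs.

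With ties again shared evenly, the resistant cell was higher in 79.2% of pairs for NME4 and in 78.0% for CLIC3. NME4, a nucleoside diphosphate kinase of mitochondria (chromosome 16 at 446725 to 460367), was at 214 and 60.8 CPM, and CLIC3, a chloride intracellular channel protein (chromosome 9 at 139889060 to 139891020), at 650 and 239 CPM. Of cells thinned to 10000 UMIs, 84.1% of resistant and 38.5% of sensitive cells held an NME4 UMI, against 97.8% and 65.9% without thinning. For CLIC3 the shares were 94.7% and 74.5% thinned and 98.9% and 93.5% unthinned. BRINP3, which the sensitive monoculture nearly lacked, was seen in 27.4% of thinned resistant and 3.51% of thinned sensitive cells of the coculture (55.5% and 10.1% unthinned). At 32.2 CPM in resistant cells it is too low in level to show what share carried-over RNA would give for NME4 or CLIC3.

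The remaining genes of the 15 highest were lower in level. HSD17B1, the enzyme that converts estrone to estradiol, was at 48.6 and 15.9 CPM, a 3.06-fold difference (2.81 to 3.34). Its UMIs were found in 30.4% of resistant and 14.1% of sensitive thinned cells (57.9% and 34.3% unthinned). FGFR4, a fibroblast growth factor receptor, was at 70.8 and 29.7 CPM, and MDK, the heparin-binding growth factor midkine, at 59.2 and 19.3 CPM. The hair keratin KRT81 was at 101 and 35.1 CPM, the secreted peptide SPINK4 at 44.8 and 12.2 CPM, and the histone acetyltransferase KAT6B at 44.9 and 15.7 CPM. DHRS2, a short-chain dehydrogenase, was at 39.5 and 9.14 CPM. The others were SEPTIN11, PDLIM1, C20orf204, BEX3 and YPEL3, with log2 ratios of 1.11 to 1.36.

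FABP7, the brain-type fatty acid binding protein (chromosome 6 at 123100861 to 123105219), was far lower in resistant cells. It was at 15.7 CPM in resistant and 313 CPM in sensitive cells, a ratio of 0.050 (0.048 to 0.053). Its log2 ratio was −4.23. Removing the estimated share of sensitive RNA, 8.16%, left none of it in resistant cells, but FABP7 was itself used for that estimate. It was uneven within the sensitive lineage: 41.1% of thinned sensitive cells held a FABP7 UMI (52.3% unthinned), 9.84% held 10 or more, and the median cell held none. In the resistant lineage 7.14% held a UMI (17.4% unthinned) and 0.29% held 10 or more.

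SCIN, the actin-severing protein scinderin (chromosome 7 at 12610203 to 12699807), was at 9.34 and 78.1 CPM and was seen in 7.65% of resistant and 51.7% of sensitive thinned cells (16.5% and 82.7% unthinned). MAPT, the microtubule protein tau, was at 15.7 and 65.8 CPM. TMSB4X, which binds monomeric actin, was the most abundant of these cytoskeletal genes at 897 and 2225 CPM. The median thinned cell held 7 TMSB4X UMIs in the resistant and 20 in the sensitive lineage. With ties shared evenly, the resistant cell was counted as higher in 17.8% of pairs for TMSB4X. The same measure was 27.6% for SCIN and 32.1% for FABP7, but came mostly from ties at 0 UMIs. Only 7.65% and 7.14% of thinned resistant cells held a UMI of these genes, so their values are not comparable with that of TMSB4X.

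**Figure D2:**
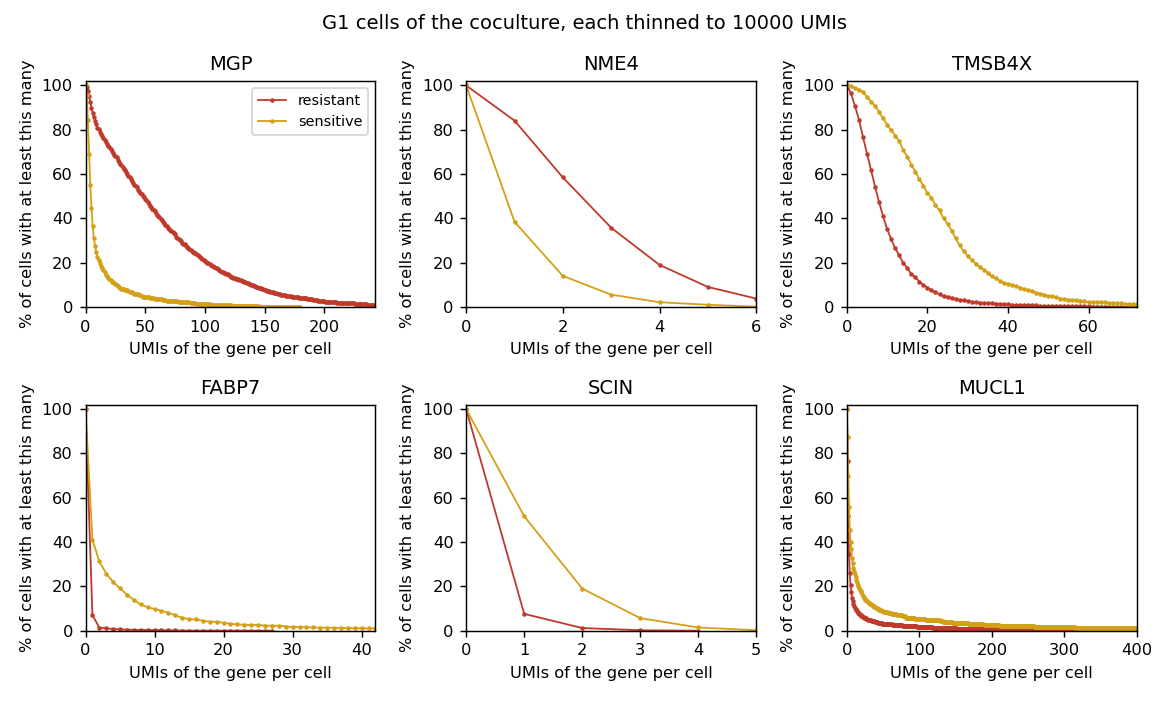
For 6 genes, the percentage of G1 cells of the coculture (vertical axis) that held at least a given number of UMIs of the gene (horizontal axis), after every cell was thinned to 10000 UMIs. The resistant line lies above the sensitive line for MGP and NME4 and below it for TMSB4X, FABP7, SCIN and MUCL1, and only a minority of sensitive cells, 41.1%, held any FABP7 UMI.

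Among the lowest genes the values of SCGB2A2 and MUCL1 depended on which cells were counted. AZGP1, a secreted zinc-binding glycoprotein, was at 63.9 and 183 CPM, and AGR2, a disulfide isomerase of secretory cells, at 115 and 302 CPM. MUCL1, a small breast mucin, was at 735 and 1947 CPM, a log2 ratio of −1.40, but at −0.23 in the 1223 resistant and 297 sensitive cells with under 15% mitochondrial UMIs. SCGB2A2, mammaglobin, had the lowest ratio of all at 1.76 and 61.4 CPM, a log2 ratio of −4.50. The 12 highest sensitive cells held 98.1% of its UMIs in that lineage. Without the top 1% of cells of each lineage its levels were 0.65 and 1.18 CPM and its log2 ratio −0.40, within 1.5-fold, so the value belongs to a handful of cells.

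The others of the 15 lowest were LINC02303, a noncoding RNA, PEG10, TMPRSS3, ADRA2A, RBBP8, LIMCH1, PGM2L1 and EDN1. EDN1, the vasoconstrictor peptide endothelin, was at 21.4 and 62.1 CPM. ADRA2A, an adrenergic receptor, was at 7.74 and 37.0 CPM, and RBBP8, a DNA end resection factor, at 23.3 and 76.2 CPM.

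The same direction was seen in other cells of the coculture for nearly all of these genes. All 15 highest and 14 of the 15 lowest were also past 1.5-fold the same way between the lineages in S and G2M cells, where 2.25% of all genes were higher and 3.92% lower, the exception being SCGB2A2 at −0.41. In G1 cells of the monocultures 14 of the 15 highest and 13 of the 15 lowest were, where 5.70% of all examined genes were higher and 13.2% lower. The highest gene that was not was DHRS2 (log2 ratio −1.04), and the lowest genes that were not were RBBP8 (−0.51) and AGR2 (0.00). AGR2 was at 169 CPM in both monocultures, against 115 and 302 CPM in the coculture.

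**Figure D3:**
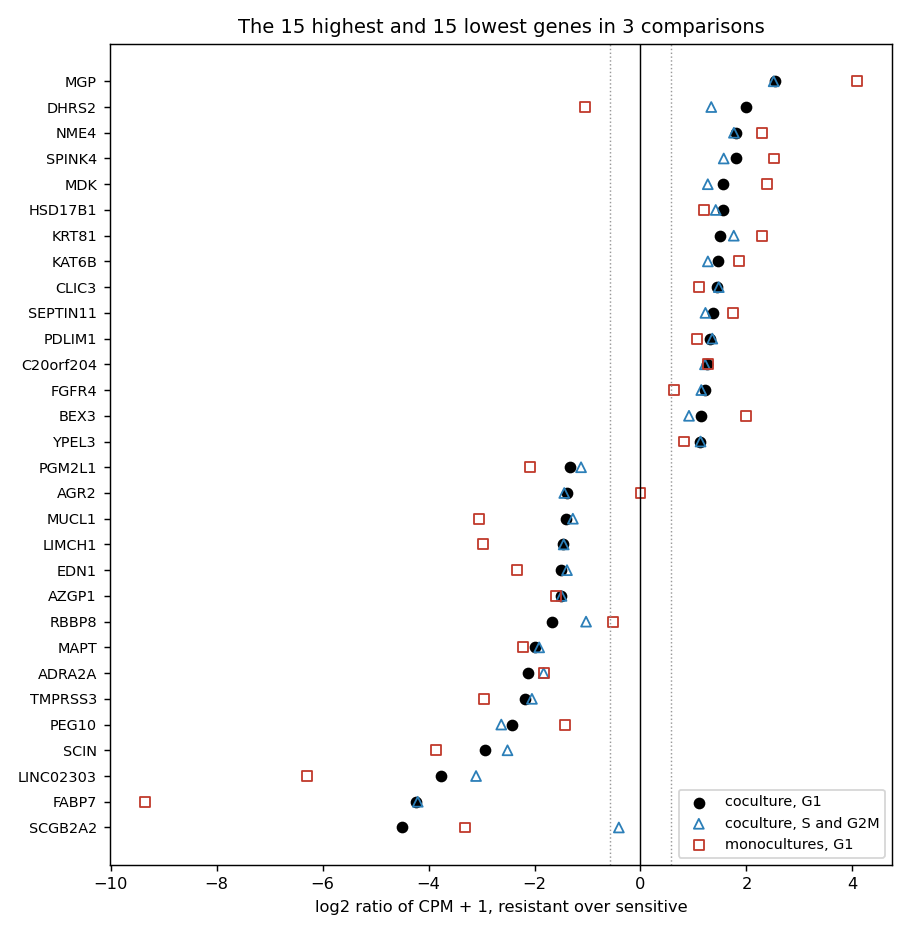
Log2 ratios of CPM + 1, resistant over sensitive (horizontal axis), of the 15 highest and 15 lowest genes of at least 20 CPM (vertical axis) in G1 cells of the coculture, S and G2M cells of the coculture, and G1 cells of the monocultures. Dotted lines mark 1.5-fold, and DHRS2 lies on opposite sides of 0 in the coculture (1.997) and the monocultures (−1.04).

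Over all genes called in G1, the S and G2M cells of the coculture shared 192 of the 302 higher genes, 63.6% of the G1 list and 70.6% of the 272 genes higher in S and G2M. They shared 384 of the 565 lower genes, 68.0% of the G1 list and 81.0% of the 474 lower in S and G2M. No gene was called in opposite directions. These cells came from the same library and the same free RNA.

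The monoculture comparison called 690 genes higher and 1600 lower, and each of its sides is a library of its own, so lineage and library cannot be told apart there. It shared 185 of the higher genes (61.3% of the coculture list and 26.8% of its own) and 436 of the lower genes (77.2% and 27.3%). Among the coculture calls 11 higher genes were called lower in the monocultures and 2 lower genes were called higher.

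Genes confined to 1 lineage in the monocultures were found in both lineages of the coculture. Of genes with at least 20 CPM in G1 cells of 1 monoculture and 50 times less in the other, 5 were confined to sensitive cells: FABP7, LINC02303, TUBA1A, COL3A1 and CLEC3A. In resistant G1 cells of the coculture they stood at 5.01% to 16.1% of their level in sensitive cells. BRINP3 was the 1 such gene of resistant cells, at 32.2 CPM in resistant and 3.91 CPM in sensitive cells of the coculture, or 12.1%. FABP7, at 1.16 CPM in the resistant monoculture, was thus at 15.7 CPM in resistant cells of the coculture, while in sensitive cells it was at 1406 CPM in monoculture and 313 CPM in coculture. Whether free RNA, doublets or expression put these transcripts there was not tested.

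Cell by cell, a minority of cells lay in clusters that took a larger share of the other lineage. The deposited clusters put 67.9% of resistant G1 cells in cluster 0, 15.1% in cluster 5 and 9.41% in cluster 6, and 76.3% of sensitive G1 cells in cluster 3 and 7.12% in cluster 4. There were 155 resistant cells (4.96%) in clusters that held a larger share of sensitive than of resistant G1 cells, and in them FABP7 was at 144 CPM against 8.90 CPM in other resistant cells and MGP at 3517 against 6365 CPM. There were 69 sensitive cells (6.06%) in clusters that held a larger share of resistant cells, and in them MGP was at 5055 CPM against 809 CPM in other sensitive cells. Of those 69 cells 20.3% had 2 or more mVenus UMIs, against 54.0% of other sensitive cells, and of the 155 cells 39.4% had 2 or more mCherry UMIs against 59.4%. When cells with a single transgene UMI were left out, all 47 genes followed across the alternatives stayed on the same side of the 1.5-fold limit. Most of these genes were picked as the 15 highest and 15 lowest and few lay near the limit, so this says little about the labels.

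Within each lineage the leading genes also varied between clusters of at least 50 G1 cells, of which resistant cells had 5 and sensitive cells 2. MGP ranged from 986 to 7237 CPM over the resistant clusters and from 786 to 805 CPM over the sensitive clusters, without overlap. The lowest resistant value was that of cluster 6. FABP7 ranged from 281 to 1049 CPM over sensitive clusters and from 7.94 to 156 CPM over resistant clusters, the highest being cluster 3, where most cells were sensitive. KRT81 and DHRS2 were highest in the 54 resistant cells of cluster 13, at 332 and 156 CPM, and their ranges overlapped those of sensitive cells. Of the 15 highest genes 7, and of the 15 lowest 10, had cluster ranges that did not overlap between the lineages. Over all 4525 genes of at least 20 CPM 11.0% had resistant ranges wholly above and 7.89% wholly below the sensitive ranges, and the 30 genes were picked as extremes. The clusters were made from these same transcripts, so this is a description only.

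Genes of the drug's own pathway had a median log2 ratio of 0.03. None of the 20 examined genes of the CDK4/6, RB and E2F axis was past 1.5-fold, beside 7.16% of all genes, and the list is too short for that absence to be told apart from the background. Counts in this and the following lists are to be read against the 2.5% of all genes that were higher and the 4.67% that were lower. CCND1, the D-type cyclin that activates CDK4 and CDK6, was at 1532 and 1595 CPM in resistant and sensitive cells. CDK4 was at 87.2 and 107 CPM, a log2 ratio of −0.29, and RB1, the target of the kinase, at 19.2 and 21.7 CPM. CCNE1, which activates CDK2, was at 11.6 and 8.84 CPM, and E2F1 at 16.7 and 16.2 CPM. CDK6 had 0.11 and 0.14 CPM, so its level could not be compared at this depth.

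Of 23 examined genes of CDK inhibitors and quiescence, 2 were higher and 3 lower past 1.5-fold (median −0.01). The 3 lower were genes of the INK4 family of CDK4 and CDK6 inhibitors. CDKN2A was at 24.4 and 46.7 CPM, CDKN2B at 2.34 and 5.32 CPM and CDKN2C at 0.33 and 1.84 CPM. The other INK4 gene, CDKN2D, was at 12.6 and 11.4 CPM. UMIs were counted per gene, so different transcripts of CDKN2A were not told apart. Of the CIP/KIP inhibitors CDKN1A was at 18.6 and 14.4 CPM, CDKN1B at 19.0 and 19.1 CPM and CDKN1C at 1.26 and 0.57 CPM, all within 1.5-fold on the log2 scale with 1 CPM added. YPEL3, linked to growth arrest, was at 58.2 and 26.3 CPM and FOXO1, a quiescence-promoting transcription factor, at 3.21 and 1.38 CPM.

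Estrogen receptor genes and targets were mixed, with more below than above 0. ESR1, the estrogen receptor itself, was at 16.2 and 19.6 CPM. Of 36 examined estrogen-induced genes 2 were higher and 5 lower past 1.5-fold, against 2.5% and 4.67% of all genes, and the median was −0.08 with 23 below 0. The 5 lower were PRSS23 (3.94 and 19.3 CPM), CXCL12 (1.93 and 8.11 CPM), AGR2, PGR and HSPB8. PGR, the progesterone receptor, was at 23.6 and 43.4 CPM. The classical targets TFF1 (5580.2 and 4576 CPM), GREB1 (56.8 and 67.7 CPM) and MYB (9.13 and 9.66 CPM) were within 1.5-fold. AREG, an EGF receptor ligand, and RET, a receptor tyrosine kinase, were higher at 7.81 and 4.23 CPM and at 7.63 and 3.69 CPM.

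Of 13 examined genes that make or clear estradiol, 2 were higher and 1 lower, against 2.5% and 4.67% of all genes, a count that rests on few genes. Beside HSD17B1, HSD17B14, which oxidizes estradiol, was at 3.43 and 1.68 CPM, and CYP1A1, an estrogen hydroxylase, at 3.24 and 6.62 CPM. CYP19A1, the aromatase, had 0 UMIs in resistant and 1 UMI in sensitive G1 cells, which is no basis for a comparison. Luminal regulators had 1 of 21 higher, TFAP2C (57.4 and 35.5 CPM), and 4 lower, EHF, PGR, TBX3 and RUNX1. FOXA1 and GATA3 were within 1.5-fold.

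Growth factor genes divided evenly. Of 23 examined ERBB, FGFR and IGF receptors and ligands, 4 were higher, IGFBP3 (5.03 and 0.73 CPM), FGFR4, RET and AREG, and 4 were lower, IRS1, FGFR1 (9.42 and 18.1 CPM), IGFBP2 (135 and 245 CPM) and TGFA. ERBB2 was at 44.9 and 37.8 CPM. Of 16 genes induced by EGFR and MAPK signaling, the immediate-early genes EGR1 (20.9 and 12.8 CPM), FOS (100 and 64.6 CPM) and JUNB and the inhibitor SPRY4 were higher, and the feedback phosphatases DUSP4 and DUSP6 and PHLDA1 were lower. Of 17 TGF-beta and BMP targets, ID1 (412 and 257 CPM), ID2 (73.1 and 42.6 CPM) and ID4 were higher and BAMBI and LTBP1 lower. MYC was at 59.8 and 67.8 CPM, and 24 of 30 of its targets were below 0 with a median of −0.10.

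4 of the 29 gene lists had a median log2 ratio at or beyond 0.2 in size, all of them lower in resistant cells, against a median of −0.0014 over all genes. Interferon-stimulated genes had the lowest, −0.32, with 23 of 27 below 0, 8 lower and none higher. The 8 were the antiviral effectors IFIT1, IFIT2, IFIT3, MX1 and OAS3, the ubiquitin-like ISG15 (41.6 and 101 CPM), IFI6 (23.4 and 42.8 CPM) and the proteasome subunit PSMB8. The sum over the list was 859 and 1201 CPM, a ratio of 0.715 (0.707 to 0.723). Few cells carried part of this. The top 1% of sensitive cells held 95.7% of IFIT2, 95.9% of IFIT3, 50.9% of MX1 and 29.6% of ISG15 UMIs of that lineage. In the resistant lineage the top 1% held 100% of IFIT2, 96.8% of IFIT3, 64.8% of MX1 and 35.6% of ISG15 UMIs. Without the top 1% of cells IFIT2 and IFIT3 were within 1.5-fold (log2 ratios −0.25 and −0.16), while MX1 was at −1.39 and ISG15 at −1.38. The 189 sensitive cells outside clusters 3 and 4 had 340.5 CPM of ISG15 and 38.0 CPM of MX1, against 61.2 and 2.48 CPM in the 868 cells of cluster 3. In the main resistant cluster 0 the levels were 21.2 and 0.95 CPM. Between clusters 0 and 3 alone the list's median was −0.26, with 21 of 27 below 0, 8 lower and 1 higher, ISG20. Only 5 of the 8 genes named above were among those lower: IFIT2 and IFIT3 were at −0.16 and −0.12 and IFIT1 turned to 0.15, while BST2, IFI27 and IFITM1 passed the limit. The median of the list over all G1 cells was −0.32, against −0.55 in S and G2M cells of the coculture and 0.23 in the monocultures.

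Mammary secretory genes had a median of −0.31, with 7 of 15 lower and 2 higher. The 2 higher, MGP and CLU (1411 and 728 CPM), a secreted chaperone, were abundant, so the list's sum was higher in resistant cells (14709 and 9585 CPM) while its median was lower. ATF4 and amino acid stress genes had a median of −0.27 with 3 of 19 lower, PHGDH and SHMT2, enzymes of serine metabolism, and the stress cytokine GDF15. The median of that list was 0.06 in S and G2M cells and −0.47 in G1 cells of the monocultures. Sterol and fatty acid synthesis genes had a median of −0.25, with 23 of 28 below 0 and 2 lower past 1.5-fold, MVK (14.6 and 23.4 CPM) and SQLE (62.7 and 95.1 CPM), both enzymes of cholesterol synthesis.

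The list furthest above 0 was that of endoplasmic reticulum folding and the unfolded protein response, with a median of 0.19, 18 of 22 above 0 and 3 higher past 1.5-fold. These were HERPUD1 (198 and 113 CPM), which takes part in degradation of misfolded proteins, CREB3L1 (28.4 and 16.2 CPM), a membrane-bound transcription factor, and the co-chaperone DNAJC3 (68.2 and 43.9 CPM). Ribosomal proteins were above 0 in 60 of 76 genes, with a median of 0.13 and none past 1.5-fold. In the monocultures the ribosomal median was 0.58. Of 24 hypoxia-inducible genes SLC2A1, a glucose transporter, and BNIP3 were higher and ENO1 and EGLN3 lower.

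Adhesion and cytoskeletal genes had a median of −0.12 with 1 of 27 higher, ANXA1 (1.09 and 0.27 CPM), and 5 lower: SCIN, TMSB4X, ANXA2 (320 and 667 CPM), CD44 and CDH3. The abundant actins ACTB (1666 and 2310.1 CPM) and ACTG1 (740 and 954 CPM) were below 0 but within 1.5-fold. The 13 genes of the mitochondrial genome had none past 1.5-fold and summed to 169919 and 188933 CPM, so a larger share of the UMIs of sensitive cells was mitochondrial. Respiratory chain genes of the nucleus, S100 genes, class I antigen presentation genes and aldehyde dehydrogenases had no member past 1.5-fold, among 45, 14, 14 and 13 examined. Of all genes 7.16% were past it, and of those of 100 CPM or more 1.21% were higher and 2.33% lower, so nothing is read from these absences.

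**Figure D4:**
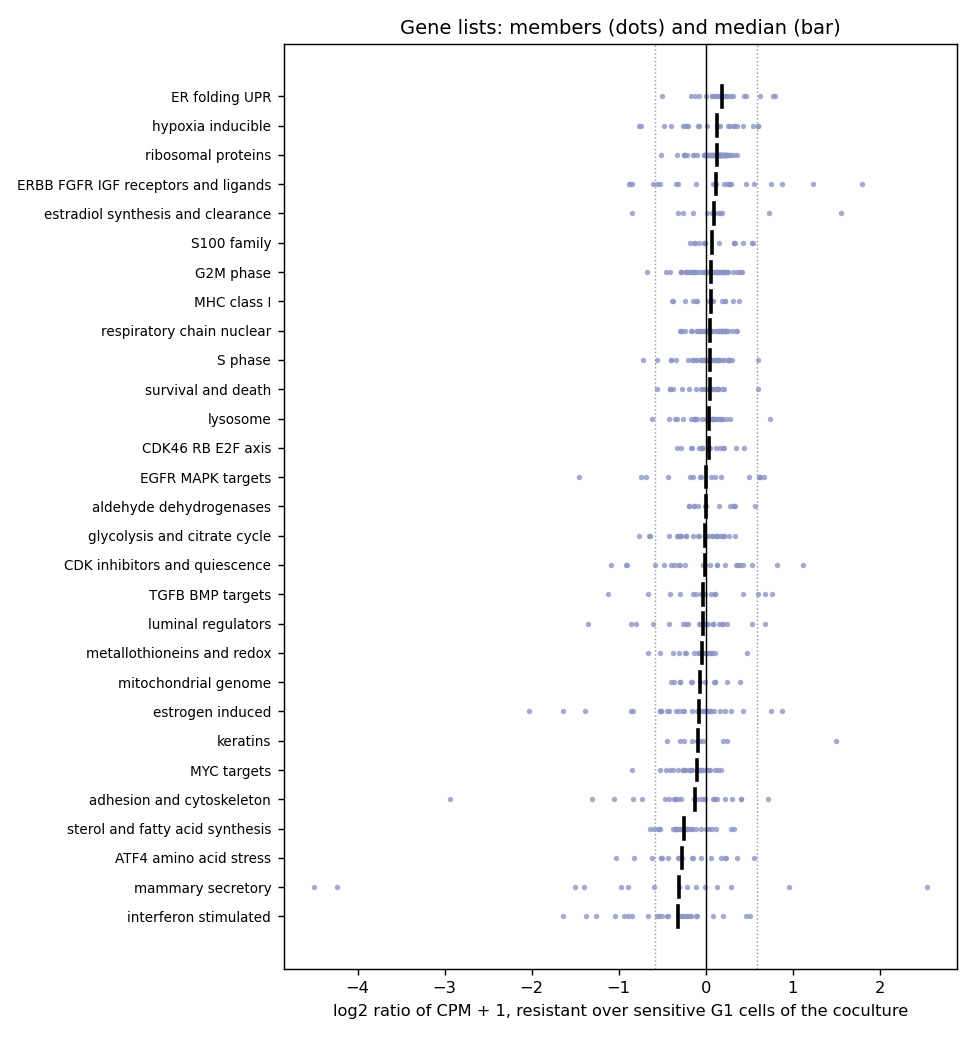
Each dot is a gene of a list, placed by its log2 ratio of CPM + 1, resistant over sensitive G1 cells of the coculture (horizontal axis), and the bar is the median of the list (vertical axis, 29 lists sorted by median). Dotted lines mark 1.5-fold, and the interferon-stimulated list has the lowest median (−0.32) and the endoplasmic reticulum folding list the highest (0.19).

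In some regions of the genome neighboring genes shared small differences. Over windows of 10 Mb with at least 20 genes of 20 CPM or more, 68 windows in all, the median log2 ratio was between −0.29 and 0.10 for 90% of windows (5th and 95th percentiles). The 4 windows that make up the first 40 Mb of chromosome 1 (GRCh37) were the lowest, with medians of −0.30, −0.36, −0.39 and −0.43. Of their 133 genes 128 were below 0 and 18 were lower past 1.5-fold, 13.5% against 2.21% of the genes of that level elsewhere. The rest of chromosome 1 had 185 genes below and 186 above 0, with a median of 0.00.

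Within that stretch ENO1, a glycolytic enzyme, was at 208 and 355 CPM, STMN1, a microtubule destabilizer, at 110 and 195 CPM and EFHD2, a calcium-binding protein, at 30.8 and 65.9 CPM. The interferon-stimulated genes ISG15 and IFI6 lie in it too. The stretch was also low in S and G2M cells of the coculture (median −0.36) and in the monocultures (−0.53).

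Of the 68 windows 12 had medians below −0.1, the others being on chromosomes 12, 21 and 22, and all 12 were below −0.1 in the monocultures as well (−0.54 to −0.13). The median over all examined genes was itself −0.11 in the monocultures, so that limit is close to their baseline. Windows that were not low in the coculture also passed it there. For example, 1 window of chromosome 1 was at −0.06 in the coculture and −0.32 in the monocultures. The window from 30 to 40 Mb of chromosome 9 was the highest, at 0.23 with 24 of 29 genes above 0, and was at 0.14 in the monocultures. It was 1 of 4 windows above 0.1. That on chromosome 7 was at 0.22 in both comparisons. Those on chromosomes 3 and 15 were at 0.15 and 0.10 in the coculture but at −0.07 and −0.24 in the monocultures. DNA copy number was not measured in these libraries, and its part in these differences was not tested.

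**Figure D5:**
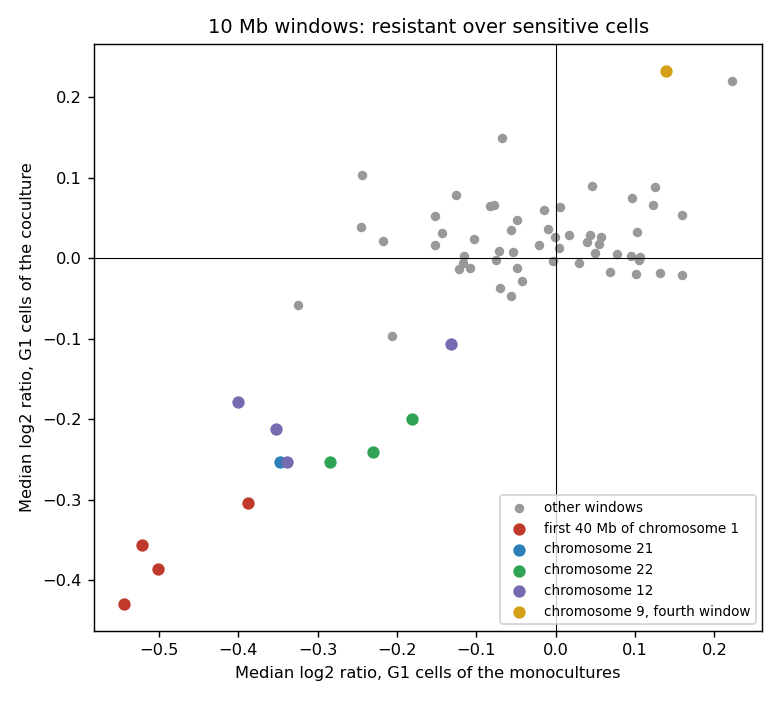
Each point is a 10 Mb window with at least 20 genes, placed by the median log2 ratio of resistant over sensitive G1 cells in the monocultures (horizontal axis) and in the coculture (vertical axis). The 4 windows of the first 40 Mb of chromosome 1 lie lowest on the vertical axis, between −0.30 and −0.43.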

How the data were processed

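Per the labels and the study's methods, CAMA-1 spheroids were frozen as cell suspensions, thawed and run on the 10x Chromium 3′ chemistry (v3), and the authors counted UMIs with Cell Ranger (3.0.2) against GRCh37. The deposited tables hold raw counts of UMIs per gene and barcode. The authors deposited an annotation of the cells they kept, with a phase label, S and G2M scores (unit score), the percent of mitochondrial UMIs, clusters and lineage labels, after filters on genes, UMIs, mitochondrial share and predicted doublets. The methods ask for at least 2 transgene UMIs, but annotated cells with 1 were present, and in the monocultures also annotated cells with none. No doublet caller was run here. The 8 other annotation columns were not used, nor were rows with no gene symbol (0.523% to 0.591% of UMIs).

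Counts were summed per lineage and phase and divided by their total (CPM). Exact Poisson, conditional and Clopper-Pearson 95% intervals were computed (Python 3.11.15, scipy 1.17.1). Log2 ratios used a pseudocount of 1 CPM, genes needed 50 UMIs, and calls 1.5-fold. Named genes were the 15 highest, the 15 lowest, the extreme members of the lists, lineage-confined genes and genes of the study's question. A mean of 20 CPM was required only of the 15 highest and 15 lowest. With 1 library per condition no test was possible. Cells were thinned to 10000 UMIs for shares. Of 820 list genes 813 matched, 16 list entries of them by older symbols in RefSeq. Gene positions came from the GRCh37 annotation supplied with the reference. The members and gene lists were chosen with earlier results of these data known. The calculations were tested on simulated data. Alternatives covered scaling (edgeR 4.0.16 TMM factors, median of ratios), pseudocount, UMI minimum, fold, cell filters, thinning and removal of the other lineage's share. The alternatives that leave out each gene's top 1% of cells and that set the interferon genes of clusters 0 and 3 side by side were added after seeing the data.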

Additional observations from a re-analysis of the deposited data

Results flagged for a closer look

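For 6 genes of at least 20 CPM the lineages differed by more than 1.5-fold in G1 cells of both comparisons but in opposite directions in the coculture and in the monocultures. With 1 library per condition, the difference between the comparisons was not tested, and in the monocultures lineage and library cannot be told apart. Log2 ratios of resistant over sensitive cells are given first for the coculture. PGR, the progesterone receptor, was at −0.85 in the coculture and 0.59 in the monocultures, with 15.2 CPM in sensitive cells alone and 43.4 CPM in sensitive cells of the coculture, against 23.4 and 23.6 CPM in resistant cells. ID1 was at 0.68 and −0.83, and ID2 at 0.77 and −0.67, both being inhibitors of basic helix-loop-helix transcription factors. For ID1 the sensitive cells were at 579 CPM alone and 257 CPM in coculture, and the resistant cells at 325 and 412 CPM. DUSP2, a MAP kinase phosphatase, was at 0.79 and −1.02, CLU, a secreted chaperone, at 0.95 and −0.63, and DHRS2 at 1.997 and −1.04.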

How the results depend on the processing

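The counts of genes past the fold moved most with the pseudocount and the fold itself. Against 302 higher and 565 lower genes, a pseudocount of 0.1 CPM gave 591 higher and 844 lower, and 10 CPM gave 70 higher and 119 lower. Removing the estimated share of the other lineage (11.1% in sensitive and 8.16% in resistant cells) gave 514 higher and 832 lower, and a 2-fold limit 62 higher and 172 lower. With a pseudocount of 10 CPM, 1 list in place of 4 had a median of 0.2 or more in size. Thinning to 5000 UMIs gave FABP7 in 4.22% of resistant and 33.8% of sensitive cells, and NME4 in 62.5% and 23.6%. IFIT1, called lower at −0.94, turned to 0.15 between clusters 0 and 3 alone, and no other called value changed sign. Of 407 list medians 390 moved by less than 0.1 and 17 by more. The limit of 15% mitochondrial UMIs gave 7 of these 17, the most of any alternative. Of 674 values of named genes 665 stayed past the fold limit with the same sign or stayed within it. Most of these genes were picked as the 15 highest and 15 lowest, so few lay near the limit. Genes within the limit could change sign, as CCNE2 did (from −0.16 to as high as 0.27). The 47 gene values under each UMI minimum (10 and 200) could not change, because that choice sets only which genes are examined. Besides IFIT1, the values no longer past the fold limit were IFIT2 and IFIT3 (−0.16 and −0.12 between clusters 0 and 3, −0.25 and −0.16 without the top 1% of cells), SCGB2A2 (−0.38 under 15% mitochondrial UMIs and −0.40 without the top 1% of cells), MUCL1 (−0.23 under 15% mitochondrial UMIs) and CLEC3A (−0.57 with 10 CPM). The interferon median ranged from −0.47 to −0.11 and the mammary secretory median from −0.61 to −0.09, while that of endoplasmic reticulum folding stayed between 0.18 and 0.24. Removing the other lineage's share, which widens ratios by construction, moved 16 of 47 followed log2 ratios by over 1.5-fold, MGP to 4.23, and left FABP7 at 0 in resistant cells, where no ratio is given. A pseudocount of 10 CPM moved 11 of the 47 and the limit of 15% mitochondrial UMIs 3, all towards 0. The causes were not tested. No paired analysis was possible because each condition is 1 library, and no replicate could be left out. Every value rests on that 1 coculture library, and counting intervals do not cover variation between spheroids.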
